A study of Saccharomyces cerevisiae with 4 samples.

Results

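The proteasome is the protease complex that degrades proteins tagged with ubiquitin, and this account follows its genes in wild-type Saccharomyces cerevisiae whose cell wall was being digested. The set held 33 genes, chosen by systematic name and function, with no measured value in the rule: 14 genes of the core particle, 10 of the base and 8 of the lid of the regulatory particle, and RPN4, the gene of their transcription factor. They were found among 6207 open reading frame (ORF) rows, and all 33 had a value on each of the 4 arrays and entered the test, which covered 4543 ORFs. Wild-type cells (strain not named in the labels), grown in rich YEPD medium at 24 °C, were split into an untreated part and a part given 5 units/ml of Zymolyase 100T, an enzyme preparation that digests wall glucan, and were collected at 3 h. RNA of 2 cultures was compared on 4 two-colour arrays with the dyes swapped. Cy3 labelled the treated RNA on arrays 1 and 3, and Cy5 labelled it on arrays 2 and 4.

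In the core particle, stacked rings of α and β subunits form a barrel with its proteolytic sites inside, and the regulatory particle recognises ubiquitin, unfolds the substrate with a ring of ATPases and feeds it into the barrel. In budding yeast Rpn4 binds an element shared by the promoters of proteasome genes, and Rpn4 is itself a short-lived substrate of the proteasome, which closes a feedback loop. RPN4 transcription is known to respond to heat, oxidative and drug stress through Hsf1, Yap1 and Pdr1.

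Values are log2 ratios of treated against untreated RNA, turned for the dye swap. The labels do not give the numerator, so the sign was set by SLT2, the gene of the cell wall integrity kinase: a positive value lies on the side of SLT2 and a negative one opposite to it. SLT2 had 2.14, 2.39, 2.18 and 2.31 on arrays 1 to 4, a 4.77-fold difference. As background, SLT2 is known to be induced by wall damage, so its side is likely the higher one in treated cells, which these files do not settle. The base of the logarithm is not stated either, and folds assume base 2. Each mean is given ± SD over 4 arrays (n = 2 cultures), and intervals and p-values are from limma with the arrays of a culture averaged.

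No proteasome gene passed the test on either side of SLT2: 0 of 33 had an adjusted p below 0.05 in limma, against 5.94% of all 4543 genes tested (4.56% on the side of SLT2 and 1.39% opposite to it). At an unadjusted p below 0.05 there were 2 of 33, PRE1 and RPN3, where 19.3% of all genes were called. The 33 means ran from -0.45 for PRE1 to 0.29 for RPN3, and the median size of a mean, regardless of sign, was 0.070 against 0.135 over all tested genes. The median over the 32 subunit genes was 0.06 and that over all genes -0.03. The subunit median was 0.0065 without array 1 and 0.012 without array 2.

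**Figure D1:**
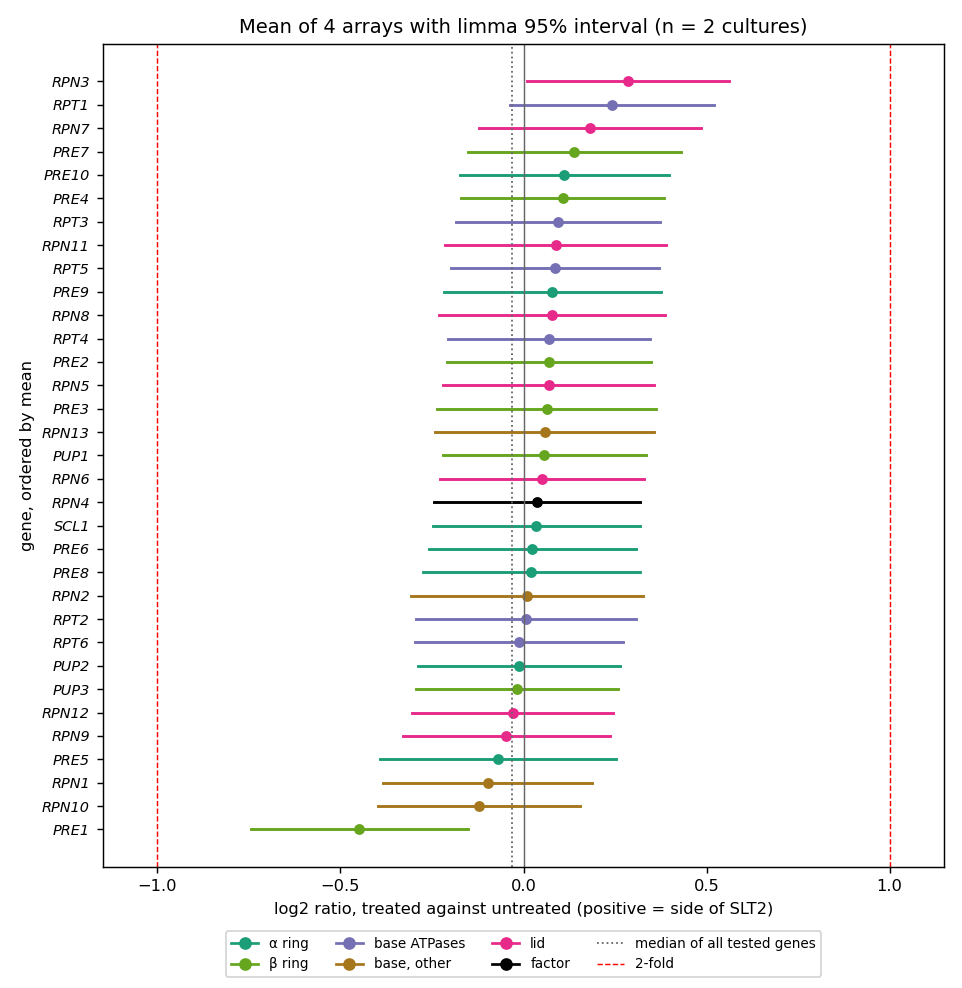
Mean log2 ratio (x axis, positive on the side of SLT2) of each of the 33 genes (y axis, ordered by mean, coloured by subcomplex), with the 95% interval from limma as a line. All intervals lie inside the dashed lines that mark a 2-fold difference, and all but those of PRE1 and RPN3 span 0.

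The intervals give the precision of each mean under the limma model, and set no firm bound on what the arrays could have missed. The 95% interval, which is per gene and not adjusted for the number of genes, spanned 0 for 31 of the 33. It did so for 3665 of all 4543 genes tested. Among the members its outermost bounds were -0.74 for PRE1 (YER012W) and 0.56 for RPN3 (YER021W). These are 1.67-fold opposite to SLT2 and 1.47-fold on its side. The interval of 0 of the 33 members reached beyond a 2-fold difference, where that of 204 of all 4543 genes did. For 3 of the 33 (PRE1, RPN3 and RPT1) it reached beyond 0.5 on the log2 scale, against 1600 of all 4543 genes.

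RPN4 (YDL020C), the regulator, had -0.05, -0.02, 0.18 and 0.03 on arrays 1 to 4. These values lie around 0, with arrays 1 and 2 on one side and arrays 3 and 4 on the other. Its mean was 0.04 ± 0.10, with an interval from -0.25 to 0.32 and an adjusted p of 0.917 in limma. As folds, this interval runs from 1.19-fold opposite to SLT2 to 1.25-fold on its side. RNA ratios carry no information on the stability of the Rpn4 protein, the other level at which this factor is known to be controlled.

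Among the core particle genes, those of the α ring, which forms the entry gate, had means from -0.07 to 0.11. PRE10 (YOR362C) had 0.00, 0.40, -0.05 and 0.09 on arrays 1 to 4 and the highest α ring mean, 0.11 ± 0.20. PRE5 (YMR314W) had 0.28, -0.01, -0.28 and -0.27 and the lowest, -0.07 ± 0.27. Array 2 was the highest for PRE10 and array 1 for PRE5, and the other arrays lay at 0.09 or below. The other α subunit means were 0.08 for PRE9 (YGR135W), whose product is the one α subunit that yeast can live without, 0.03 for SCL1 (YGL011C), 0.02 for PRE6 (YOL038W) and PRE8 (YML092C), and -0.01 for PUP2 (YGR253C).

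PRE1 was the member farthest from 0. It encodes a β subunit with no active site of its own, beside the chymotrypsin-like Pre2 site in the barrel. Its values were -0.30, -0.33, -0.50 and -0.66 on arrays 1 to 4, so all 4 arrays lay opposite to SLT2, in both dye orientations. The mean was -0.45 ± 0.17, a 1.36-fold difference, with an adjusted p of 0.0867 in limma, the larger of those from both pairings of arrays into cultures that hold a dye swap. Pairing array 1 with array 4 gave 0.00149 but called 27.1% of all genes, and pairing array 1 with array 2 gave 0.0867. PRE1 also passed in limma with the arrays as if independent and a dye term (0.0387, where 11.3% of all genes were called) and with robust empirical Bayes (0.00925, where 12.8% were). The coding genes on either side of PRE1 in the RefSeq table, TIR1 (0.27 ± 0.32) and PRP22 (-0.02 ± 0.16), do not overlap it and did not pass the test.

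The genes of the 3 catalytic β subunits had means near 0. PRE2 (YPR103W), for the chymotrypsin-like site, had 0.07 ± 0.09, PUP1 (YOR157C), for the trypsin-like site, 0.06 ± 0.07, and PRE3 (YJL001W), for the caspase-like site, 0.06 ± 0.61. PRE3 was the most uneven member: it had 0.08 and 0.09 on arrays 1 and 2 but 0.78 on array 3 and -0.70 on array 4. Of the other β subunit genes, PRE7 (YBL041W) had 0.47, 0.03, 0.21 and -0.15 on arrays 1 to 4 (mean 0.14 ± 0.26). PRE4 (YFR050C) had 0.00, 0.28, -0.18 and 0.33 (0.11 ± 0.24), and PUP3 (YER094C) had -0.24, 0.17, -0.21 and 0.20 (-0.02 ± 0.24). PRE4 and PUP3 were thus higher toward SLT2 on the arrays with treated RNA on Cy5, and PRE7 on those with it on Cy3.

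**Figure D2:**
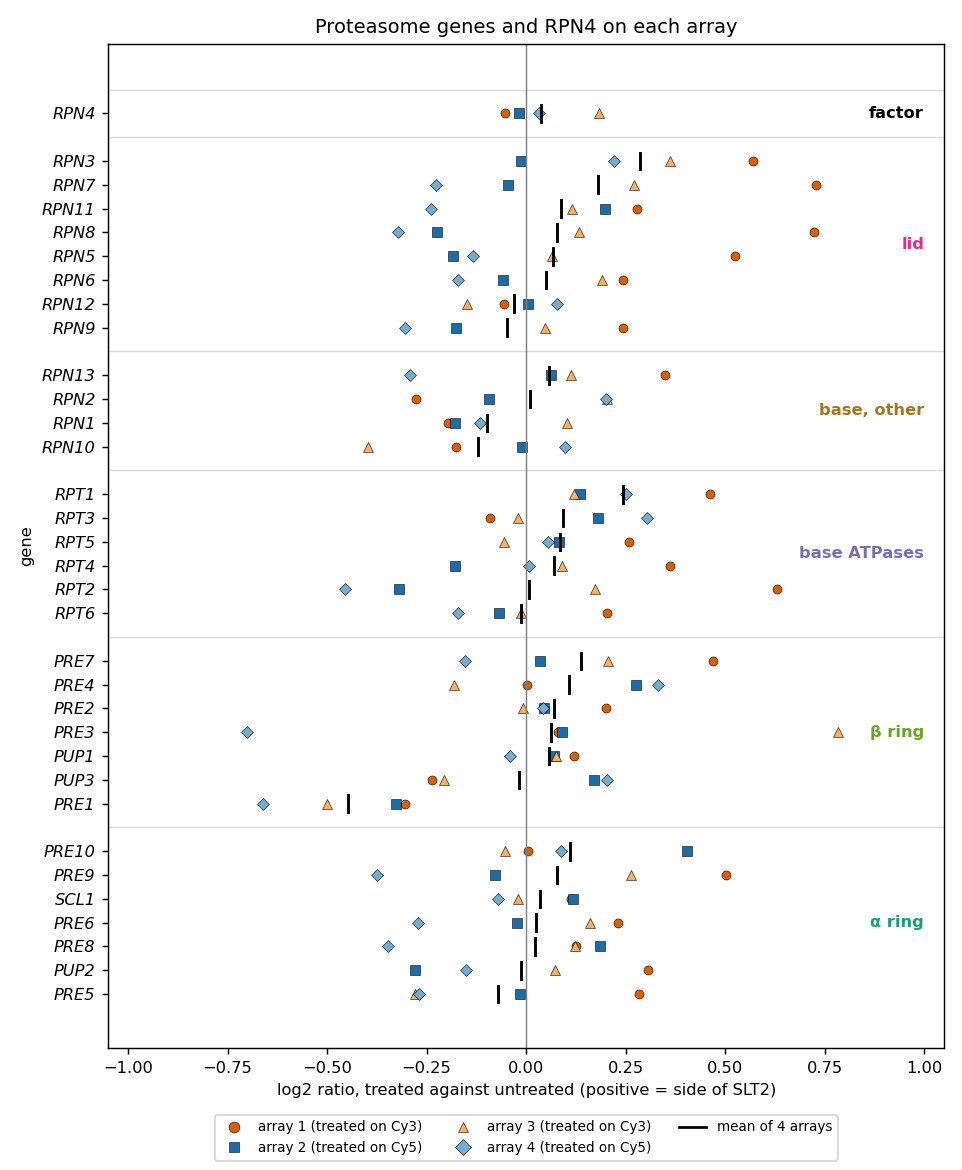
Log2 ratio (x axis, positive on the side of SLT2) of each of the 33 genes (y axis, grouped by subcomplex) on each array, with black bars for the mean of 4 arrays. PRE1 and RPT1 are the genes with 1 sign on all 4 arrays, and several lid and α ring genes have arrays 1 and 3 to the right of 0 and arrays 2 and 4 to its left.

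The base holds the ATPase ring and the large scaffolds, and 0 of its 10 genes had an unadjusted p below 0.05 in limma, where 19.3% of all genes did. RPT1 (YKL145W), an ATPase gene, had 0.46, 0.14, 0.12 and 0.25 on arrays 1 to 4. It was the one member on the side of SLT2 on every array, with a mean of 0.24 ± 0.16 and an adjusted p of 0.331 in limma. RPT3 (YDR394W) had -0.09, 0.18, -0.02 and 0.30 (mean 0.09 ± 0.18), and RPT5 (YOR117W) had 0.26, 0.08, -0.06 and 0.05 (0.09 ± 0.13). RPT6 (YGL048C) had 0.20, -0.07, -0.01 and -0.17 (-0.01 ± 0.16). These 3 ATPase genes had both signs among their arrays, as did RPT4 (YOR259C, 0.07 ± 0.22) and RPT2 (0.01 ± 0.50), whose product opens the gate of the core.

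The non-ATPase genes of the base had the lowest median of any subgroup, -0.04 over 4 genes. RPN10 (YHR200W), which encodes a ubiquitin receptor, had -0.18, -0.01, -0.40 and 0.10 on arrays 1 to 4 (mean -0.12 ± 0.22). RPN1 (YHR027C), for the scaffold that docks ubiquitin shuttles and Ubp6, had -0.20, -0.18, 0.10 and -0.12 (-0.10 ± 0.14). Neither was separated from 0 by more than its spread. RPN13 (YLR421C), for another ubiquitin receptor, and RPN2 (YIL075C), for the scaffold that holds it, had means of 0.06 ± 0.26 and 0.01 ± 0.24.

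The lid, which carries the deubiquitinase Rpn11 that strips ubiquitin from substrates, had means from -0.05 to 0.29 in its 8 genes. RPN3, a lid scaffold gene, had 0.57, -0.01, 0.36 and 0.22 on arrays 1 to 4 and the highest mean of all members, 0.29 ± 0.25 (adjusted p = 0.239 in limma). Pairing array 1 with array 4 gave RPN3 an adjusted p of 0.0275, while the other pairing gave 0.239. RPN7 (YPR108W) had 0.73, -0.04, 0.27 and -0.23 (mean 0.18 ± 0.42). Array 1 was the highest for both genes, and array 2 or 4 the lowest. RPN11 (YFR004W) itself had 0.28, 0.20, 0.11 and -0.24 (0.09 ± 0.23), and RPN8 (YOR261C), for the subunit paired with it, had 0.72, -0.22, 0.13 and -0.32 (0.08 ± 0.47). At the low end RPN9 (YDR427W) had 0.24, -0.18, 0.05 and -0.30 (-0.05 ± 0.24) and RPN12 (YFR052W) had -0.06, 0.01, -0.15 and 0.08 (-0.03 ± 0.10). RPN6 (YDL097C), with 0.24, -0.06, 0.19 and -0.17, had 0.05 ± 0.20, and RPN5 (YDL147W) had 0.07 ± 0.32. All 8 lid genes had both signs among their arrays, where 28.5% of all tested genes had 1 sign on all 4.

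The subunit medians were higher on the arrays with treated RNA on Cy3. With treated RNA on Cy3 the median over the 32 subunit genes was 0.24 on array 1 and 0.08 on array 3, and 25 and 20 of them were positive. With treated RNA on Cy5 the median was -0.01 on array 2 and -0.14 on array 4, and 15 and 12 were positive. Over all tested genes the medians were 0.04, -0.03, -0.05 and -0.04 in the order of the arrays.

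**Figure D3:**
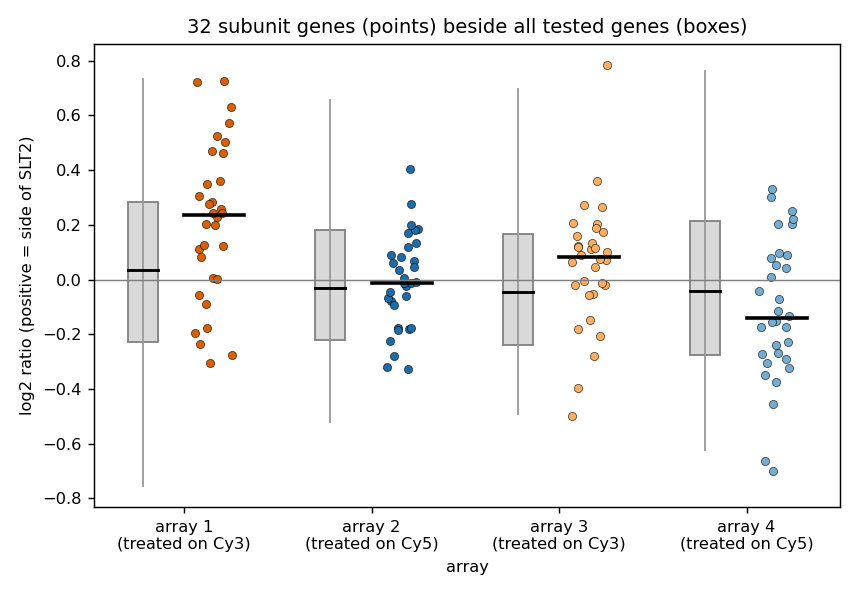
Log2 ratios (y axis, positive on the side of SLT2) of the 32 subunit genes (points, black bar for their median) on each array (x axis), beside all tested genes (box from the 25th to the 75th percentile, line from the 5th to the 95th, black bar for the median). The subunit median is above that of all genes on arrays 1, 2 and 3, by least on array 2, and below it on array 4.

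Averaged within each dye orientation, 24 of the 32 subunit genes had opposite signs on Cy3 and Cy5 arrays, where 47.3% of all tested genes did, so in these genes the part of the ratio that differed between orientations was larger than the part they shared. Of them 17 were positive with treated RNA on Cy3 and negative with it on Cy5 (53.1%, against 24.5% of all genes). RPT2 (YDL007W) was the clearest case, with 0.63, -0.32, 0.17 and -0.45 in the order of the arrays, which cancel in its mean of 0.01. RPN8 (0.43 on Cy3 arrays and -0.27 on Cy5 arrays), PRE9 (0.38 and -0.23) and RPN7 (0.50 and -0.14) ran the same way, while PRE4 (-0.09 and 0.30) and PUP3 (-0.22 and 0.19) ran the other way. Only 2 of the 33 members, PRE1 and RPT1, had 1 sign on all 4 arrays, against 28.5% of all genes. No set test was made of these shares, and the part of the dyes in any single gene's value was not tested. Had arrays 1 and 3 shared a culture, dye and culture could not be told apart.

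**Figure D4:**
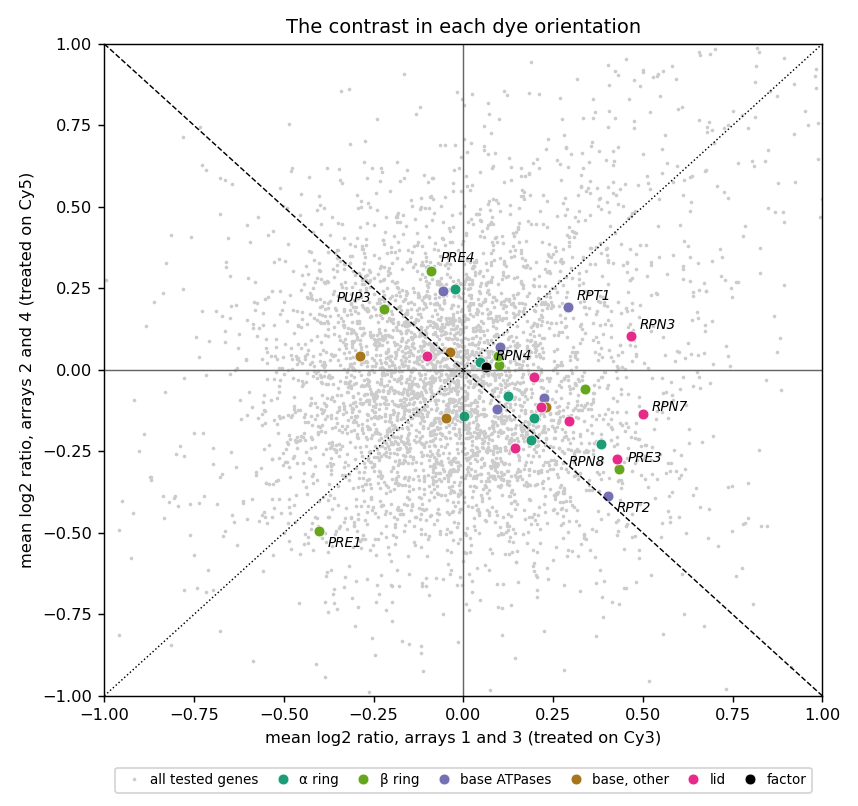
Mean log2 ratio on arrays 1 and 3 (x axis, treated RNA on Cy3) against that on arrays 2 and 4 (y axis, treated RNA on Cy5), with all tested genes in grey (134 lie beyond the axes) and the 33 members coloured by subcomplex. The dotted diagonal marks equal values in both orientations, near which PRE1 and RPT1 lie, and the dashed one marks values that cancel, near which RPT2, PUP3 and PRE3 lie.

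The same values can also be read as correlations between arrays, which are not separate evidence. Across the 32 subunit genes, which share each array and are not independent replicates, the turned values correlated with r = 0.47 between arrays 1 and 3 and 0.46 between arrays 2 and 4. Between arrays of opposite dye orientation r ran from -0.27 to -0.01. Over all tested genes r was 0.37 between arrays 1 and 3 and 0.75 between arrays 2 and 4. A positive r within a dye orientation was thus not particular to the subunit genes. The opposite-orientation pairs gave r from 0.09 to 0.54 over all tested genes, an agreement not seen in the subunit genes. The 0.37 of arrays 1 and 3 lay inside that range, and only the r of arrays 2 and 4 lay above it. In the subunit genes both same-orientation pairs lay above every opposite-orientation pair. The subunit means also had a smaller median size, 0.070 against 0.135 over all genes. Its part in these r values was not tested.

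Genes that work with the proteasome were described beside it in 3 lists. Of 16 genes for assembly chaperones and associated proteins 12 were tested, with a median of 0.11. Of these 1, SPG5, passed the test, on the side of SLT2, where 4.56% of all genes were called. SPG5 encodes a protein known to act with the proteasome in stationary phase. It had 0.38, 0.74, 0.42 and 0.55 on arrays 1 to 4, all on that side and in both dye orientations. Its mean was 0.52 ± 0.16, a 1.44-fold difference (adjusted p = 0.0432 in limma). The call was lost with arrays centred (0.0574), centred and scaled (0.0579) or quantile normalized (0.0516). Limma fits without any 1 array, which took the others as independent with a dye term, did not call it either (0.0580 to 0.116). That model on all arrays gave SPG5 0.0161. GYL1, a coding gene next to SPG5, had 0.72 ± 0.27, also on the side of SLT2, and passed the test (adjusted p = 0.0149 in limma). SGS1, its other neighbour, had values on 3 arrays and was not tested.

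The chaperones that build the particles had smaller means. NAS2, for a chaperone of the base, had 0.21 ± 0.17, and BLM10, for an alternative activator of the core, 0.19 ± 0.26. HSM3, for another base chaperone, had 0.02 ± 0.17 and POC4, for an α ring chaperone, -0.02 ± 0.10. UMP1, whose product matures the core particle, had 0.02 ± 0.15 and UBP6, for the deubiquitinase bound to Rpn1, 0.16 ± 0.19, and none of these passed. IRC25, the gene of Poc4's partner, had values on 3 arrays (0.09, 0.32 and 0.65 on arrays 1, 3 and 4), and ECM29 and HUL5 had none. The lid gene SEM1, not among the 33, had no row among the ORFs and could not be tested.

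Of 25 genes for ubiquitin, its conjugation, its shuttles and the Cdc48 segregase, 24 were tested, of which 0 passed in limma (5.94% of all genes did) and 2 had an unadjusted p below 0.05 (19.3% of all genes), with a list median of 0.03. These were UBI4, the stress-induced polyubiquitin gene, and UBC5, for a ubiquitin-conjugating enzyme used in stress. UBI4 had 0.85, 0.40, 0.38 and 0.39 on arrays 1 to 4, with array 1 apart from the others (mean 0.51 ± 0.23, adjusted p = 0.0582 in limma). UBC5 had 0.17, 0.73, 0.07 and 0.96 (0.48 ± 0.43, adjusted p = 0.0576 in limma), so it was positive on all arrays and larger on the 2 with treated RNA on Cy5. The genes that make ubiquitin as a fusion to ribosomal proteins lay on the other side of 0, with means of -0.26 ± 0.20 for RPL40B, -0.13 ± 0.23 for RPL40A and -0.17 ± 0.43 for RPS31, and UBC4, the near-identical partner of UBC5, had 0.09 ± 0.14. These differences between relatives were not tested, and probes of such similar genes may share signal. RSP5, for a ubiquitin ligase of membrane proteins, had the lowest mean of the list after RPL40B, -0.21 ± 0.20.

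Of 6 regulators of RPN4 transcription or Rpn4 stability 5 were tested, of which 0 passed in limma and 0 had an unadjusted p below 0.05, beside the same 5.94% and 19.3% of all genes, and the list median was -0.07. YAP1, of the oxidative stress factor, had 0.00 ± 0.08, the least spread of the 5, and PDR3, of a drug resistance factor, -0.03 ± 0.24. PDR1 had -0.21 ± 0.34 and MUB1, for a protein that works with the ligase Ubr2 on Rpn4, -0.22 ± 0.20. HSF1, of the heat shock factor, had -0.77, -0.21, 0.30 and 0.40 on arrays 1 to 4 (-0.07 ± 0.54), so arrays 1 and 2 opposed arrays 3 and 4. UBR2 had values on arrays 1 and 4 only (0.15 and 0.13).

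**Figure D5:**
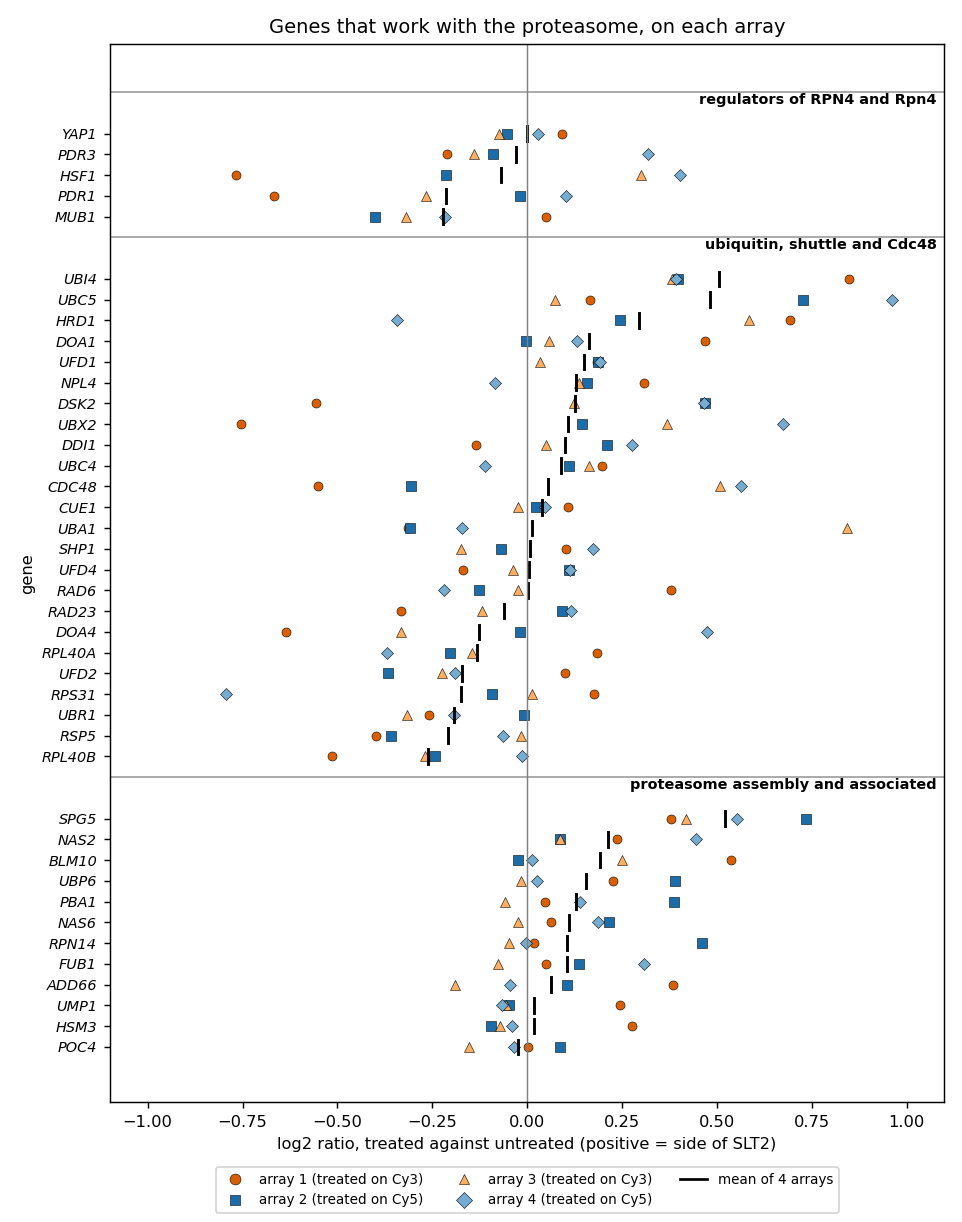
Log2 ratio (x axis, positive on the side of SLT2) of each tested gene of the 3 related lists (y axis, ordered by mean within a list) on each array, with black bars for the mean of 4 arrays. SPG5 lies to the right of 0 on all 4 arrays, as do UBI4 and UBC5, while RPL40B lies to its left on all 4.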

How the data were processed

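The authors deposited 1 table of log ratios between the channels of each two-colour array. Neither the labels nor the table state its base, numerator, background correction, normalization or filters. The deposited values were taken as log2 and turned by the dyes in the labels, and the sign was set by SLT2. Of 6207 ORF rows (2 control rows left out) 4543 had 4 values, and 5654 matched RefSeq R64 locus tags. No intensities were used, so the depth of signal is unknown and precision rests on the number of arrays. Which arrays share a culture is not labelled. The labels describe a dye swap for each sample, read here as 1 array of each orientation per culture, so pairing array 1 with 3 was not fitted. Arrays of a culture were averaged and tested with limma 3.58.1 (R 4.3.3) under both remaining pairings, keeping the larger p, with Benjamini-Hochberg adjustment over 4543 ORFs at 0.05. Under the wrong pairing each average mixes both cultures, so its spread is not that between cultures. P-values and intervals rest on the spread between 2 culture averages, which limma moderates toward a value shared by all genes. They therefore reflect a gene's own spread only in part. The standard error was 0.136 for PRE3 (SD 0.61 over arrays) and 0.121 for PUP1 (SD 0.07). The fit was also run on simulated data, with results that are not given here and not used as support. Members and lists were chosen with earlier results of these data known. The naming rule gave array values for RPN4, for members past the test and for the 3 highest and 3 lowest means of core, base and lid. In the related lists it named genes past the test and the 2 highest and 2 lowest. PRE3, RPT2, RPN8 and HSF1 shown by array, and other related genes named, were chosen after their values were seen. A planned search of promoters for the Rpn4 element was not run, since no sequence was used here. Alternatives changed the pairing, the dye term, the normalization, the missing-value filter, the variance model and the threshold, or left out an array.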

Additional observations from a re-analysis of the deposited data

Results flagged for a closer look

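For 7 of the 75 genes checked, a single array stood apart from the rest. The measure was its gap to the nearest array relative to the range of the 4 values, so a small gap can count. About 1 in 20 sets of 4 values would be flagged by chance. Among the members this was PRE8, with -0.35 on array 4 and 0.12 to 0.18 elsewhere. Among the related genes, UMP1 had 0.24 on array 1 and -0.07 to -0.05 elsewhere, HSM3 had 0.28 on array 1 and -0.09 to -0.04 elsewhere, and RPN14, for a base chaperone, had 0.46 on array 2 and -0.05 to 0.02 elsewhere. UBI4 had 0.85 on array 1 and 0.38 to 0.40 elsewhere, and UBA1, for the ubiquitin-activating enzyme, had 0.84 on array 3 and -0.31 to -0.17 elsewhere. UFD1, for a cofactor of Cdc48, had 0.034 on array 3 and 0.19 elsewhere.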

How the results depend on the processing

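The count of members past the test was 0 of 33 in limma. It stayed at 0 with arrays centred, centred and scaled or quantile normalized, and with 4 independent arrays in a fit lacking a dye term. The count was also 0 without each array in turn (0 to 0). Pairing array 1 with array 2 gave 0 too, with 270 of all genes called, as in the main test. Turning every sign or lowering the adjusted p to 0.01 could not have raised the count. It was 1 (PRE1) with the arrays as if independent and a dye term (for genes with 4 values and for genes with 3 or 4), with robust empirical Bayes and at an adjusted p of 0.1, and 2 (PRE1 and RPN3) with array 1 paired with array 4 and at an unadjusted p of 0.05. The adjusted p of PRE1 ran from 0.00149 to 0.251 and that of RPN3 from 0.0275 to 0.532 over these settings. The count in the related lists, 1, was 0 with arrays centred, centred and scaled or quantile normalized and at an adjusted p of 0.01, and 0 to 1 without each array in turn, the 1 being UBI4 without array 3. It was 3 (SPG5, UBI4 and UBC5) in both dye-term fits on all arrays, under robust empirical Bayes and at both looser thresholds, and 5 with array 1 paired with array 4. The median of the subunit genes ran from 0.0065 to 0.081 and the mean of RPN4 from -0.023 to 0.095 when 1 array was left out. Of 462 values of single members under 14 settings, 457 moved by less than the SD over arrays with no change of call, and 5 gained a call. Most of these values could not have moved further. The pairing, dye term, sign, missing-value filter and variance model leave a member's mean unchanged. Leaving out 1 array cannot move a mean by as much as its SD. The 457 is therefore no measure of stability. Across the settings, 26 values of 16 members changed sign, none of them past the threshold. Over all genes the count of 270 became 193 with arrays centred, 166 centred and scaled, 276 with independent arrays and no dye term, 512 with a dye term added to that fit, 527 in that fit with genes of 3 values admitted, 583 with robust empirical Bayes, 1229 with array 1 paired with array 4, and 133, 450 and 878 at the other thresholds. The cause of these moves was not tested. With 2 cultures, the interval of a typical member, not adjusted for the number of genes, reached 0.283 either side of its mean. The adjusted test was less sensitive than that. In it PRE1 (mean -0.45), UBC5 (0.48) and UBI4 (0.51) did not pass, while SPG5 (0.52) did. Differences well above 0.283 could therefore go uncalled.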
